A study of Rattus norvegicus with 65 samples.

Results

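The arrays described here are the epithelial rat mammary tumors at either end of a basal keratin score. The study started from carcinogen-induced mammary tumors and passed them serially through syngeneic rats, so each line holds a primary tumor and up to 5 transplants. The 65 arrays cover 11 lines, numbered 10, 13, 17, 19, 25L, 25R, 32, 33, 34, 36 and 42, in 6 generations, with 1 array for each tumor. The labels name no strain, age, carcinogen or later treatment. Whether 25L and 25R came from 1 animal is not stated. The groups were selected on measured values: arrays with an Epcam log2 intensity of 8 or more were kept, the score was the mean log2 intensity of Krt5 and Krt14, and the 54 kept arrays were split into 18 basal-keratin-high, 18 middle and 18 basal-keratin-low arrays. The other 11 arrays had Epcam under 8 and entered no group: all 6 of line 42, transplants 4 and 5 of line 32, and transplants 3 to 5 of line 34.

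Keratin 5 and keratin 14 pair to form the intermediate filaments of the basal layer of stratified and glandular epithelia. In the normal mammary gland they mark the outer, basal or myoepithelial cells, which contract to expel milk and sit on the basement membrane, while keratins 8, 18 and 19 mark the inner luminal cells that secrete milk. Epcam is a surface protein of epithelial cells. In bulk tumor tissue, fewer cells of a type and less RNA per cell cannot be told apart, and this holds for every gene below.

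The 6 genes past the adjusted threshold between the groups, described below, included Ndufa4l2 and the glucose transporter Slc2a1, known to respond to low oxygen. The regions upstream of these genes and of Ldha, a glycolytic enzyme whose difference did not pass the adjusted threshold, are shown first. Hypoxia-inducible factor binds a core of 5 bases that can be ACGTG, and its targets include glucose transporters and glycolytic enzymes. Only this form is marked here and counted as the core, and other forms were not searched. Each sequence holds 250 bases before and 50 bases after the annotated start of the gene (RefSeq, GRCr8), in lower case, with every ACGTG on either strand in capitals (CACGT is the other strand). Where matches on both strands overlap, as in CACGTG, they count as 1. The regions are chr7:65241919-65242218 on the plus strand for Ndufa4l2, chr5:138002272-138002571 on the plus strand for Slc2a1 and chr1:106507842-106508141 on the plus strand for Ldha.
Ndufa4l2: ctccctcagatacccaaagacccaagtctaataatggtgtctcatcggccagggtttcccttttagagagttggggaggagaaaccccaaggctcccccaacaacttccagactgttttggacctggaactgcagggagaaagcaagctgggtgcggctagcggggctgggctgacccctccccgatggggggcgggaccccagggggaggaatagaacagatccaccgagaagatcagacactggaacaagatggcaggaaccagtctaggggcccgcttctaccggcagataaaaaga
Slc2a1: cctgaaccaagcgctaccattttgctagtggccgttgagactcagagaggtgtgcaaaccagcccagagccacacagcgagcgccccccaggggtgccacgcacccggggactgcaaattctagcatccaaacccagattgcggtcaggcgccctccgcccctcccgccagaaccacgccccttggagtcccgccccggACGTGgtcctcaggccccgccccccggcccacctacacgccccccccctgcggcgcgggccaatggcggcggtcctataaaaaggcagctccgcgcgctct
Ldha: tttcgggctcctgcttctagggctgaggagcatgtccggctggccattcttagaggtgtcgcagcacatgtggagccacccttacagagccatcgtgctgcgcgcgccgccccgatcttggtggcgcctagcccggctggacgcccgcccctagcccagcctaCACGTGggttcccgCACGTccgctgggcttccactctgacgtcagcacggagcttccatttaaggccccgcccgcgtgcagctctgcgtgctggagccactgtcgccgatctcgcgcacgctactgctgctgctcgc
Ndufa4l2, which had the largest difference of the 6, holds no match in this window. Slc2a1 holds 1 match that starts 51 bases before the gene start. Ldha holds 2 separate stretches, which start 87 and 73 bases before it. Of the 25 hypoxia and glycolysis genes described below, 23 were found in the promoter table and 12 of these held the core, as did 25.8% of the 7107 promoters of tested genes and 19.3% of all 33469 promoters in the table. Of the 6 genes past the adjusted threshold, described below, 5 were found in the promoter table and 1, Slc2a1, held the core. A match is a run of letters and not a site of binding.

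Krt14 varied more than Krt5 among the kept arrays. Krt5 ran from 11.40 through a median of 11.82 to 12.29 log2 units in the 18 high arrays, and from 8.78 through 11.04 to 11.52 in the 18 low arrays. Krt14 ran from 10.16 through 11.02 to 12.16 in the high arrays and from 6.97 through 9.71 to 10.27 in the low arrays. Each keratin alone overlapped between the groups, and the score does not, because it made them. The high mean exceeded the low mean by 1.63 log2 units for Krt14 and by 1.00 for Krt5. These values chose the arrays and are given as a description only. Over the 54 kept arrays Krt14 had an SD of 0.87 and Krt5 one of 0.61, and their Pearson correlation was 0.69 (Spearman 0.60), a description over arrays that share lines.

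**Figure D1:**
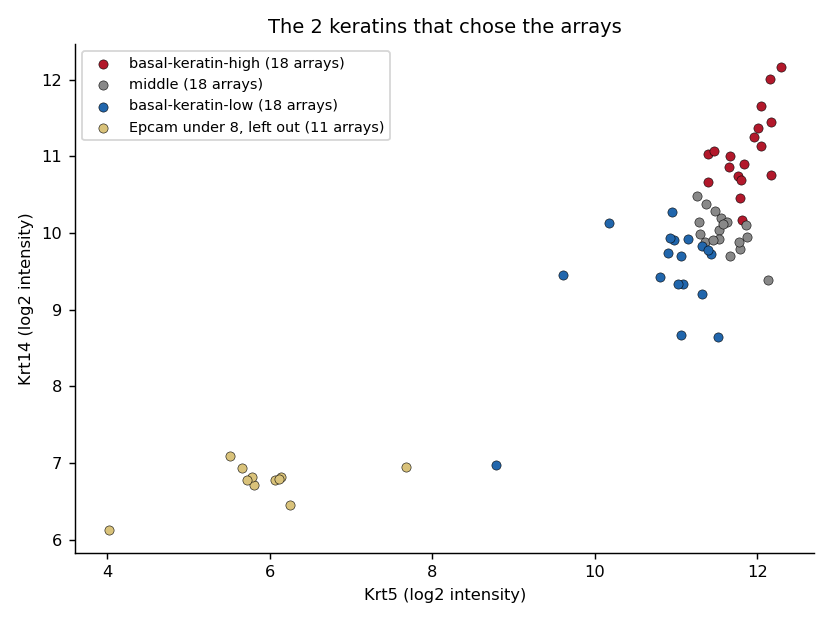
Krt14 against Krt5 (both log2 intensity), 1 point per array, for the 18 basal-keratin-high, 18 middle and 18 basal-keratin-low arrays and the 11 arrays with Epcam under 8. The high and low groups meet the middle group without a gap, and 1 low array, line 32 transplant 3, lies near the arrays that were left out.

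Low is a relative term here. The 11 arrays with Epcam under 8 had scores between 5.07 and 7.31, against 7.87 to 10.61 in the low group. Apart from line 32 transplant 3, at 7.87, every low array had a score of 9.53 or more. The score had no gap at either boundary: the lowest high array had 10.99 and the highest middle array 10.98, and the lowest middle array had 10.62 and the highest low array 10.61. Epcam, which marks the arrays as epithelial, ran from 10.57 through 11.35 to 12.01 in the high arrays and from 9.17 through 11.28 to 11.93 in the low arrays.

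Lines differed in where their arrays fell. All 6 arrays of line 17 and 5 of the 6 arrays of line 36 were basal-keratin-high, which makes 11 of the 18 high arrays. Lines 10, 13, 19 and 32 held no high array, and lines 10, 13 and 19 gave 11 of the 18 low arrays. Lines 25L, 25R, 33, 34 and 36 held both kinds, so 5 lines allow a comparison within a line. Line explained 39.4% of the variance of the score and generation 7.42%. The high group held 3 arrays of each generation, and the low group held 5 primary tumors and 2, 3, 3, 2 and 3 arrays of transplants 1 to 5.

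**Figure D2:**
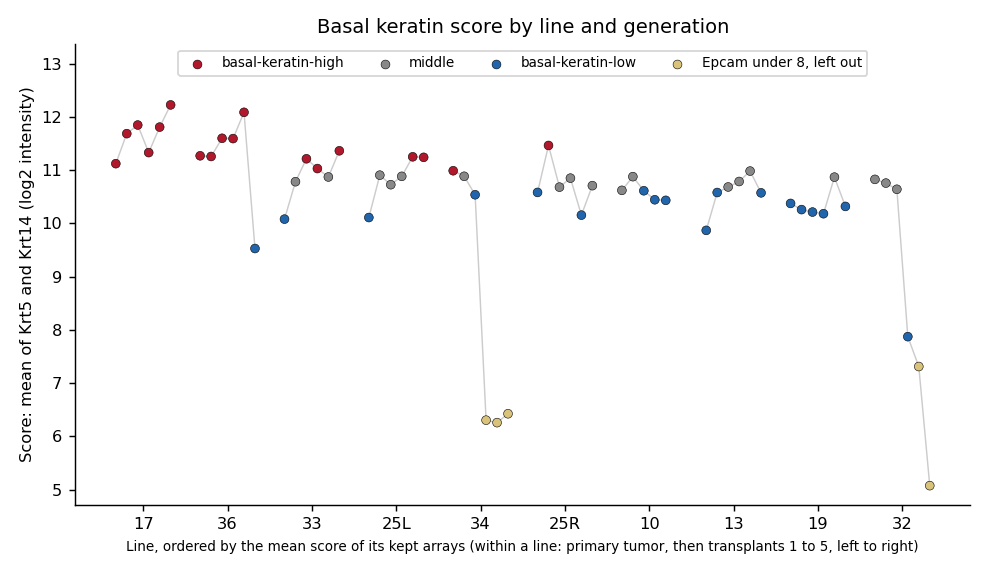
Basal keratin score (mean of Krt5 and Krt14, log2 intensity) of every array of the 10 lines with a kept array, in order of generation within each line, coloured by group. All 6 arrays of line 17 are basal-keratin-high, the last transplant of line 36 drops to 9.53, and lines 32 and 34 drop to scores between 5.07 and 7.87 in their later transplants.

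A pair of low arrays stood apart from the rest of their group. Line 32 transplant 3 and line 36 transplant 5 had Epcam at 9.17 and 9.46, while the lowest value among the other kept arrays was 10.57. In these arrays Krt18, a luminal keratin, stood at 7.32 and 7.90, against a median of 10.66 in the other low arrays. Cdh1, the epithelial cadherin, stood at 7.85 and 8.21, against a median of 10.51. Krt8, another luminal keratin, stood at 8.21 and 10.44, against a median of 11.16. Tp63 and Sox10, which encode transcription factors of basal mammary cells, were at the floor of 5.31 in both. Neither was particular to the pair: Tp63 was at the floor in 3 low arrays, and Sox10 in 3 low and 6 high arrays. The Epcam, Krt18 and Cdh1 values go against the epithelial label for this pair, and several gene groups below are also given without it. The median intensity before scaling ran from 156.6 to 171.8 in the high arrays and from 152.3 to 176.5 in the low arrays. The log2 ratio of 3' to 5' Gapdh control signal, a measure of RNA integrity, averaged 0.173 in the high arrays and 0.097 in the low arrays.

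Across 8496 tested genes, 6 rose in the basal-keratin-high arrays and none fell (limma with line as a random block, Benjamini-Hochberg adjusted p under 0.05). That is 0.0706% of the tested genes higher and 0% lower. At an unadjusted p under 0.05, 690 genes were higher, which is 8.12% of those tested, and 510 were lower, which is 6%. A further 12 genes, all higher, lay just beyond the threshold with an adjusted p under 0.06, for 18 in all. Krt5, Krt14 and Epcam were not tested. No tested gene separated the groups without overlap. Differences below are fitted values that allow for the correlation of arrays within a line (0.261), so they are not plain differences of group means.

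Ndufa4l2, a mitochondrial protein induced in low oxygen, had the largest difference of the 6 genes past the threshold. It ran from 6.89 through a median of 8.81 to 10.56 log2 units in the high arrays and from 5.69 through 7.10 to 8.26 in the low arrays. The upper part of the high group lay above every low array, while its lowest members, among them the primary tumor of line 17 at 6.89, fell inside the low range. The fitted difference was 1.63 ± 0.30 (SE, n = 18 each), a 3.10-fold higher level (limma adjusted p = 0.0089). It was above 0 in 5 of 5 lines that hold both groups, from 0.066 in line 34 to 3.06 in line 33. The middle arrays averaged 7.21, close to the low mean of 7.09.

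Ndrg1, a cytoplasmic protein whose gene is a widely used hypoxia marker, ran from 8.32 through 11.26 to 12.04 in the high arrays and from 8.20 through 9.66 to 11.73 in the low arrays. Most high arrays lay above most low arrays, and the highest low array was line 36 transplant 5. The difference was 1.43 ± 0.29 (SE, limma adjusted p = 0.022) and was above 0 in 5 of 5 lines. With line as a fixed block it was 1.34 with an adjusted p of 0.054.

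Slc2a1, the glucose transporter GLUT1, ran from 9.25 through 10.54 to 11.20 in the high arrays and from 8.02 through 9.53 to 11.26 in the low arrays. The groups overlapped over most of their range, although the medians lay apart. The difference was 1.11 ± 0.24 (SE, limma adjusted p = 0.040). Within lines it was between 1.61 and 1.92 in lines 25L, 25R, 33 and 34, and it was -0.31 in line 36.

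Serpinb1a, an intracellular inhibitor of neutrophil proteases, ran from 9.29 through 9.93 to 11.19 in the high arrays and from 6.71 through 9.03 to 10.49 in the low arrays, a difference of 1.14 ± 0.25 (SE, limma adjusted p = 0.040). The high arrays had no member below 9.29, and several low arrays did. Fat2, an atypical cadherin of epithelial cell contacts, ran from 7.93 through 8.27 to 8.78 in the high arrays and from 6.93 through 7.95 to 8.35 in the low arrays, a difference of 0.57 ± 0.11 (SE, limma adjusted p = 0.022). Hunk, a kinase first described in mouse mammary tissue, ran from 7.55 through 7.90 to 8.33 in the high arrays and from 6.70 through 7.33 to 8.06 in the low arrays, a difference of 0.56 ± 0.11 (SE, limma adjusted p = 0.022). The 4 genes named before Fat2 differed by at least 2-fold, and Fat2 and Hunk by 1.48-fold each.

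**Figure D3:**
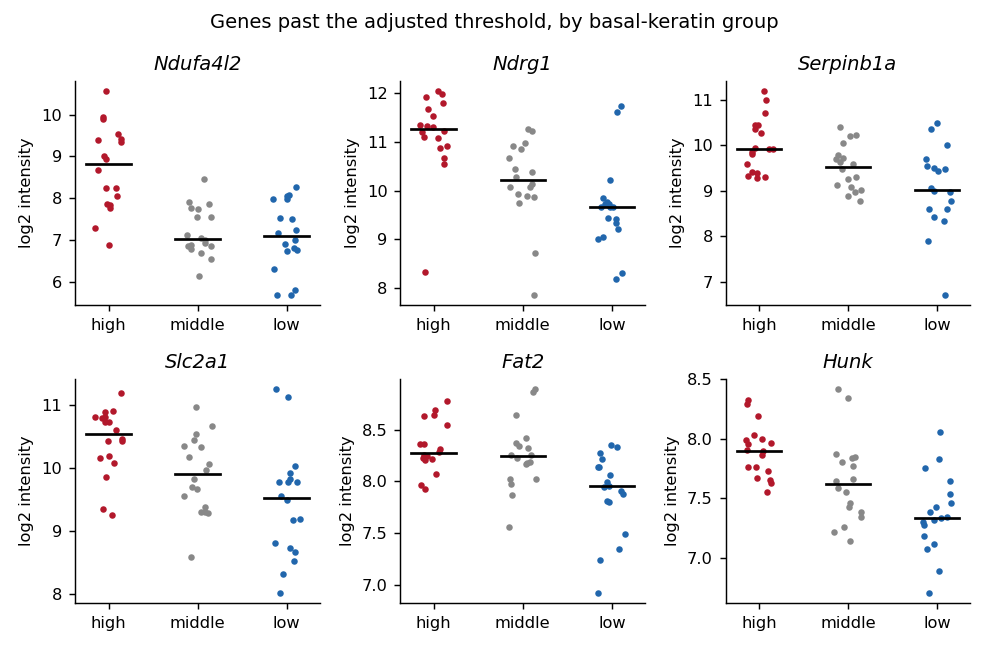
Log2 intensity of the 6 genes past the adjusted threshold in the 18 high, 18 middle and 18 low arrays, with 1 point per array and a bar at the median. For all 6 genes the high median lies above the low median, the groups overlap, and the middle arrays of Ndufa4l2 lie with the low arrays.

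The set of genes past the threshold depended on how line and the low-Epcam pair were treated. With line as a fixed block, which compares arrays within lines only, 31 genes rose (0.365%) and 8 fell (0.0942%), and 5 of the 6 genes above were among them, Ndrg1 being the exception. Without line 32 transplant 3 and line 36 transplant 5, 22 genes rose (0.259%) and none fell. Of the 6, Ndufa4l2 (1.70 ± 0.32, adjusted p = 0.010), Ndrg1 (1.69 ± 0.30, adjusted p = 0.0083) and Slc2a1 (1.24 ± 0.24, adjusted p = 0.011) passed the limma threshold there. Serpinb1a had an adjusted p of 0.081, Fat2 0.065 and Hunk 0.081. Treating the score as continuous over the 52 remaining arrays, 183 genes rose with the score (2.15%) and 34 fell (0.4%). With the pair left out and line as a fixed block, no gene passed, and none of the 6 was kept.

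Genes of the hypoxia response and glycolysis were higher together. All 25 tested genes of this list had a difference above 0, against 53.9% of all tested genes, 2 passed the adjusted threshold (Ndrg1 and Slc2a1), and 23 were higher at an unadjusted p under 0.05, against 8.12% of all genes. Hk1, the constitutive hexokinase, at 0.05, and Ankrd37, at 0.06, were the other two. The median difference of the list was 0.54, against 0.015 over all tested genes. The list was chosen with earlier results of these data known, so its counts are a description.

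Ndrg1, Egln3, Slc2a1 and Vegfa had the largest differences of the list. Vegfa, the main angiogenic growth factor, ran from 8.71 through 9.91 to 10.98 in the high arrays and from 7.96 through 8.80 to 10.80 in the low arrays, a difference of 1.04 ± 0.24 (SE, limma adjusted p = 0.055). Egln3, a prolyl hydroxylase that marks hypoxia-inducible factor for degradation and is itself induced by it, ran from 6.43 through 9.07 to 9.71 in the high arrays and from 6.15 through 7.91 to 9.71 in the low arrays. Its difference was 1.19 ± 0.29 (SE, limma adjusted p = 0.056), and that of the related Egln1 was 0.54. Adm, a vasodilator peptide, differed by 0.94, Ddit4, an inhibitor of mTOR signalling, by 0.67, and P4ha1, a collagen prolyl hydroxylase, by 0.70, none of them past the adjusted threshold.

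Among the glycolytic enzymes, Pfkp, the platelet-type phosphofructokinase, had the largest difference. It ran from 7.94 through 8.57 to 9.50 in the high arrays and from 6.69 through 7.68 to 9.14 in the low arrays, with a difference of 0.83 ± 0.19 (SE, limma adjusted p = 0.055). Pfkl, the liver-type form, differed by 0.64 and the triose isomerase Tpi1 by 0.48. Ldha, which turns pyruvate into lactate and whose upstream region is shown above, ran from 10.44 through 11.71 to 12.14 in the high arrays and from 10.20 through 11.15 to 12.31 in the low arrays, a difference of 0.47. Aldoa differed by 0.40, Pgk1 by 0.35, Gpi by 0.31 and Eno1 by 0.23. These enzymes did not pass the adjusted threshold in this fit, while without the low-Epcam pair 8 of the 25 genes did: Ndrg1, Slc2a1, Vegfa, Pfkp, P4ha1, P4ha2, Egln1 and Aldoa. With the continuous score over the same 52 arrays, 19 of the 25 passed. With line as a fixed block over these arrays none did, although 23 were higher at an unadjusted p under 0.05. Of all 8496 tested genes, 972 were past that level in that fit in either direction. None of the 25 passed either with the Gapdh control ratio as a covariate, without primary tumors, with 1 value per line, by Krt5 alone, or when line 13, 19, 25L, 25R, 33 or 36 was left out.

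**Figure D4:**
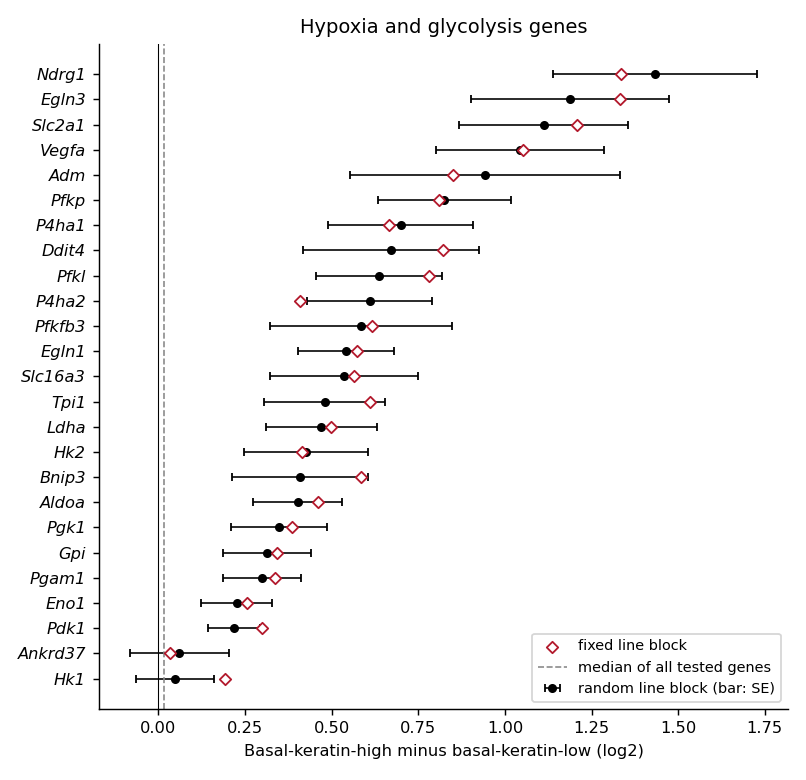
Basal-keratin-high minus basal-keratin-low difference (log2) of the 25 hypoxia and glycolysis genes, with line as a random block (black, bars are SE) and as a fixed block (open diamonds); the dashed line is the median of all 8496 tested genes, 0.015. All 25 differences lie above 0 in both fits, from 0.05 for Hk1 to 1.43 for Ndrg1 in the random-block fit.

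The mean of the 25 genes in each array showed how far the groups overlapped. It ran from 8.64 through a median of 9.71 to 10.13 log2 units in the high arrays and from 8.59 through 9.20 to 10.30 in the low arrays. Of the 18 high arrays, 16 lay above the low median, and 2 of the 18 low arrays lay above the high median. The lowest high array was the primary tumor of line 17, and the highest low array was line 36 transplant 5. Within lines, the mean of the high arrays exceeded that of the low arrays by 1.15 in line 25L, 0.72 in 25R, 0.84 in 33 and 0.88 in 34. In line 36, whose only low array is transplant 5, the difference was -0.26. Of the 25 genes, 22 were higher in at least 4 of the 5 lines, and 5 in all 5. Over all tested genes 6.00% were higher in all 5 lines, and the share for at least 4 lines was not computed. In each of these lines 1 or both groups held a single array. Primary tumors were the only low array of lines 25L and 33 and 1 of the 2 low arrays of 25R, while the high arrays of these lines were transplants. In line 34 the high array was the primary tumor. Group and generation therefore cannot be told apart within a line.

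The list mean was also set out by generation. Among primary tumors the median of the list mean was 10.03 in the 3 high arrays and 8.76 in the 5 low arrays. In transplants 1 to 5 the high medians were 9.74, 9.60, 9.69, 9.66 and 9.88, and the low medians were 8.73, 9.44, 9.13, 9.28 and 9.52. The high median was the higher one in each of the 6 generations, with the widest gap in primary tumors. Without the primary tumors all 25 genes still had a difference above 0, with a median of 0.39. There 11 were higher at an unadjusted p under 0.05, but none passed the adjusted threshold. Of all 8496 tested genes, 1099 were past that unadjusted level in either direction. With generation as a factor in the fit, the median was 0.54 and 22 were higher at an unadjusted p under 0.05. Of all 8496 tested genes, 1119 were past that level there in either direction. With the Gapdh control ratio as a covariate 20 of the list were higher at that level, and 899 of all tested genes were past it in either direction. That covariate ended both adjusted calls of the list, Ndrg1 and Slc2a1, and the ratio differed between the groups as given above.

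**Figure D5:**
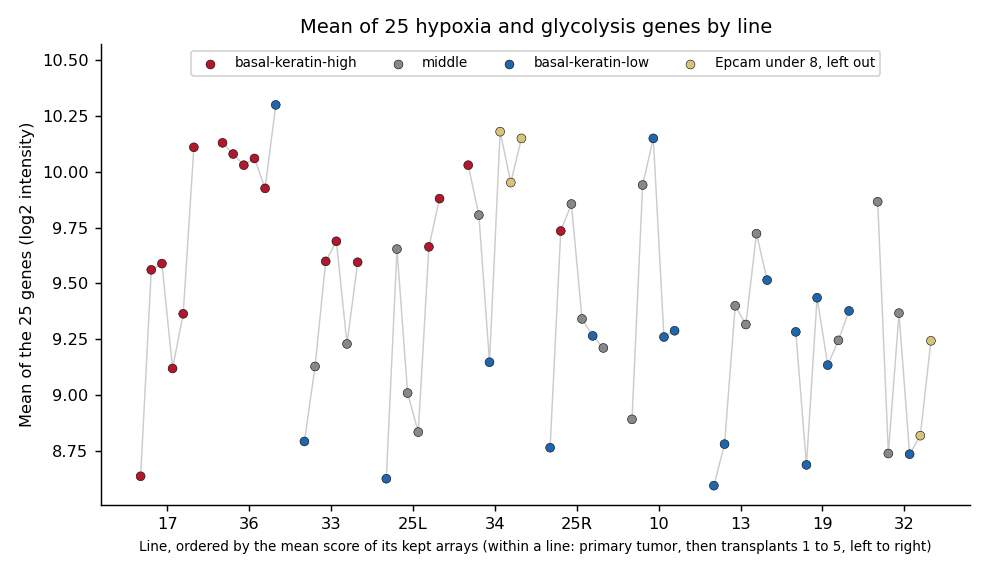
Mean log2 intensity of the 25 hypoxia and glycolysis genes in every array of the 10 lines with a kept array, in order of generation within each line, coloured by basal-keratin group. High arrays lie above low arrays in lines 25L, 25R, 33 and 34, while the low array of line 36, at 10.30, is the highest of all low arrays.

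The same list was also described in the 18 middle arrays, which neither group holds. They are not independent of the comparison, since they share lines with both groups and enter its fit. The list was chosen with earlier results of these data known, so its counts here are a description too. The slope of each gene on the score was above 0 for 24 of the 25 genes, with a median of 1.37 log2 units per unit of score, against 0.011 over all tested genes. At an unadjusted p under 0.05, 6 of the 25 slopes were above 0, against 0.836% of all tested genes. No gene passed the adjusted threshold there (limma, 190 at an unadjusted p under 0.05 in either direction), and the smallest adjusted p was 1.00. The scores of the middle arrays span only 10.62 to 10.98.

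Other basal and myoepithelial genes moved less uniformly. Krt15, a keratin of basal and hair follicle cells and the only other basal keratin tested, ran from 10.52 through 11.34 to 12.24 in the high arrays and from 7.05 through 10.13 to 12.07 in the low arrays. The difference was 1.51 ± 0.36 (SE, limma adjusted p = 0.055), positive in 4 of 5 lines, and it was 1.18 ± 0.36 with an adjusted p of 0.13 without the low-Epcam pair. With line as a fixed block Krt15 passed the threshold over all kept arrays, at 1.73 (limma adjusted p = 0.042). Without the pair that fit gave 1.37 (adjusted p = 0.23). Krt15 also passed with the continuous score without the pair, with a slope of 1.08. Tp63, the transcription factor p63 that maintains basal cells, had a median of 8.42 in the high arrays and 8.14 in the low arrays, where 3 arrays were at the floor. Its difference was 0.84 ± 0.28 (SE, adjusted p = 0.19), and 0.34 ± 0.23 without the low-Epcam pair. Of the 8 basal transcription factors tested, 4 differences were above 0 and the median was 0.075. Of 17 basal surface and adhesion genes, 13 were above 0, against 53.9% of all genes, with a median of 0.15. At an unadjusted p under 0.05, 7 were higher, against 8.12% of all genes, and none passed the adjusted threshold. Without the low-Epcam pair their median was 0.21 and 1 of them, Cd44, passed it.

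Genes that anchor basal cells to the basement membrane gave a mixed picture. Itgb4, the integrin subunit of hemidesmosomes, ran from 9.09 through 9.76 to 10.49 in the high arrays and from 7.02 through 9.28 to 9.75 in the low arrays, a difference of 0.64 ± 0.17 (SE, limma adjusted p = 0.072), positive in 5 of 5 lines. Lama3, a chain of laminin-332, differed by 0.63 ± 0.23 (adjusted p = 0.23). Plec, the linker of keratins to hemidesmosomes, and Lama5 differed by 0.14 and 0.12. None of the 7 tested genes of this list passed the adjusted threshold, 2 were higher at an unadjusted p under 0.05, against 8.12% of all genes, and the median was 0.12. Without the low-Epcam pair, 4 were higher at that level, none passed the adjusted threshold, and the median was 0.21. Over all genes, 1202 of 8496 were past that level there in either direction. With the continuous score without the pair, Itgb4 and Lama3 passed the adjusted threshold, as did 2.15% of all genes in that direction.

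The contractile genes of myoepithelium showed small differences in 1 direction. All 13 tested had a difference above 0, against 53.9% of all genes, with a median of 0.25 against 0.015 over all genes, and 3 were higher at an unadjusted p under 0.05, against 8.12% of all genes: Tagln (1.01 ± 0.43), Tpm2 (0.73 ± 0.34) and Tpm1 (0.53 ± 0.17, SE). Acta2, the smooth muscle actin by which myoepithelial cells are usually recognised, differed by 0.32 ± 0.30 and Cnn1, calponin, by 0.01 ± 0.37. None of the 13 passed the adjusted threshold. Without the low-Epcam pair, 11 of the 13 were above 0 with a median of 0.20. Fibroblasts and vessel walls also express these genes, and the fibroblast matrix list had 24 of 26 differences above 0 with a median of 0.33, which was -0.19 with line as a fixed block. Its part in the contractile genes was not tested.

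Genes of squamous epithelium did not move as a block. Of 18 tested, 9 were higher at an unadjusted p under 0.05, against 8.12% of all genes, none past the adjusted threshold, and the median was 0.35. The higher ones included Sfn, the epithelial 14-3-3 protein (1.28 ± 0.31, SE, limma adjusted p = 0.062), Lgals7, a galectin of stratified epithelium (1.20 ± 0.46), the gap junction protein Gjb2 (0.98 ± 0.29) and Trim29 (0.81 ± 0.21, adjusted p = 0.072). At the other end of the same list, Krt1 differed by -0.25, Krtdap by -0.09 and Sprr1a by 0.00, while Dmkn differed by 0.33, Sbsn by 0.26 and Loricrin by 0.09. Ivl, Krt10 and Tgm1 were too dim to be tested. Without the low-Epcam pair, 3 of the 18 were higher at an unadjusted p under 0.05 and the list median was 0.18. Over all genes, 1202 of 8496 were past that level there in either direction.

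Luminal genes had no direction that held across the fits. All 5 tested luminal keratins had a difference above 0, with a median of 0.57, and none passed the adjusted threshold. Krt8 had a median of 11.33 in the high arrays and 11.12 in the low arrays (difference 0.57 ± 0.23, SE, adjusted p = 0.26). Krt19 had a median of 11.18 in the high arrays and 11.19 in the low arrays, with a fitted difference of 0.69 ± 0.28. Krt8, Krt18 and Krt19 averaged highest in the middle arrays, at 11.71, 10.90 and 11.59. These differences leaned on the low-Epcam pair: without it none of the 5 was higher at an unadjusted p under 0.05, the median was 0.27, and Krt8 differed by 0.31 ± 0.19. With 1 value per line, 1 of the 5 slopes on the score was above 0, with a median of -0.19. The 18 genes of luminal surface and junctions had 14 differences above 0 and a median of 0.27 over all kept arrays, 8 and -0.05 without the pair, and 3 and -0.20 with 1 value per line. With line as a fixed block over all kept arrays, the luminal genes were higher. All 5 luminal keratins were above 0 with a median of 0.88, none past the adjusted threshold. Of the 18 surface and junction genes, 17 were above 0 with a median of 0.45, and Cdh1 and Lad1 passed it, against 0.365% of all genes. No gene passed in that fit without the pair. With the continuous score without the pair, 5 of the 18 surface and junction genes were lower at an unadjusted p under 0.05. Past that level in either direction were 1547 of the 8496 tested genes. In the same fit Xbp1, a transcription factor of secretory cells, fell by 0.50 ± 0.11 per log2 unit of score (SE, limma adjusted p = 0.0047).

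Milk genes varied widely within both groups. Csn2, beta casein, ran from the floor of 5.31 through a median of 5.36 to 12.28 in the high arrays and from 5.31 through 5.52 to 10.57 in the low arrays. With 9 high and 7 low arrays at the floor, the difference of 1.19 ± 0.85 was within its error. Csn3, kappa casein, had a median of 12.71 in the high arrays and 12.60 in the low arrays. Of 15 milk genes tested, 1 was higher at an unadjusted p under 0.05, against 8.12% of all genes, and the median difference was 0.14. Without the low-Epcam pair none of them was past that level, and the median was 0.046. The hormone response list had 1 gene higher and 2 lower of 16 at that level, against 8.12% higher and 6% lower of all genes. The lower ones were Penk (-1.27 ± 0.61), the precursor of enkephalins, and Igf1r (-0.44 ± 0.19). Without the low-Epcam pair, 3 of the 16 were lower at that level and the median was -0.21. Over all genes, 1202 of 8496 were past it there in either direction.

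No mitosis or fibroblast matrix gene passed the adjusted threshold, although most of their differences were above 0. Of 18 mitosis genes 17 had a difference above 0, with a median of 0.29, and none was past an unadjusted p of 0.05. Without the low-Epcam pair, all 18 were above 0 with a median of 0.40 and 3 past that level, and 10 were past it with the continuous score over the same arrays. Of all 8496 tested genes, 1202 were past that level in either direction without the pair, and 1547 with that continuous score. The mean of the fibroblast matrix genes ran from 8.13 through 9.43 to 10.65 in the high arrays and from 6.86 through 8.47 to 10.56 in the low arrays. Without the pair, all 26 of these genes were above 0, with a median of 0.58, close to the 0.59 of the hypoxia list, and 6 were past an unadjusted p of 0.05, while with line as a fixed block over all kept arrays the median was -0.19. Their part in the other results was not tested.

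Markers of immune and other cell types showed smaller values. Macrophage genes had a median of 0.0046, with none of 14 past an unadjusted p of 0.05. Of 11 T and NK cell genes none was above 0, against 53.9% of all genes, with a median of -0.11. At an unadjusted p under 0.05, 1 of them, Cd8b, was lower (-0.23 ± 0.10), against 6% of all genes. Endothelial genes had a median of 0.12, adipocyte genes 0.037, skeletal muscle genes -0.11 and red blood cell genes -0.15, and none of these 4 lists had a gene past the adjusted threshold. At an unadjusted p under 0.05, 2 of 13 endothelial genes were higher, against 8.12% of all genes, and 1 was lower. Of 8 adipocyte, 10 skeletal muscle and 3 red blood cell genes, 1 each was lower, against 6% of all genes.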

How the data were processed

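RNA from frozen tumor tissue (6 µg of total RNA per array, per the labels) was hybridised to Affymetrix arrays. Per the deposited file, each value is the intensity of a probe set, not logged, between 1 and 12011. The authors' probe summary and normalization are not given in the sources used here. Arrays were rescaled so that 15866 non-control probe sets had the same median intensity, 162.4, on each. Values under the pooled 10th percentile (39.8, log2 of 5.31) were set to it, except in the score, and log2 was taken. Each gene was represented by its probe set with the highest mean. Of the probe sets, 12783 had 1 gene symbol, 312 several and 2771 none; only the first kind was used. Genes whose mean passed the 25th percentile (log2 of 6.35) were tested: 8496 of 10411.

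The groups were compared with limma 3.58.1 in R 4.3.3 (lmFit, eBayes, two-sided, Benjamini-Hochberg over all tested genes), with the middle arrays in the fit and line as a random block, since arrays of a line descend from 1 tumor (estimated correlation 0.261); the fit was also run with line as a fixed block, and was tested on simulated data. There is 1 array per tumor, so p-values measure the spread between these arrays. The arrays, gene lists and named genes were chosen with earlier results of these data known. Named are the 3 rule genes, up to 10 genes past the threshold in each direction, and per list up to 4 members past it, or, for basal, luminal keratin, contractile and milk lists, the 4 largest differences; other list members named were chosen after their values were seen. The last transplant of line 10 was not analysed here. Alternatives are given in the closing section.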

Additional observations from a re-analysis of the deposited data

Results flagged for a closer look

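Within lines, 90 sets of values (9 measures and the list mean in 9 lines with 4 to 6 kept arrays) were checked for a single array far from the others, and 15 had one. Chance gives about 1 in 20 such sets. In line 36, transplant 5 stood below the other 5 arrays for Krt5 (9.61, others from 11.47), Epcam (9.46, others from 10.93), Fat2 (7.24, others from 7.96) and Hunk (6.70, others from 7.90). In line 32, transplant 3 had Epcam at 9.17, with the others from 11.56. In line 17, the primary tumor was far below its transplants for Ndrg1 (8.32, others from 10.54) and Ndufa4l2 (6.89, others from 9.35), although it was itself basal-keratin-high, and transplant 5 was the highest for Serpinb1a (11, others up to 9.92). In line 13, the primary tumor was lowest for Krt14 (8.67, others from 9.70) and Serpinb1a (6.71, others from 9.43). In line 25L the primary tumor had Krt5 at 10.8, with the others from 11.47, and in line 25R transplant 1 had Krt14 at 10.76, with the others up to 10.14. Krt5 in transplant 5 of line 33 was 11.83, with the others up to 11.53. Hunk in the primary tumor of line 19 was 8.06, with the others up to 7.53, and Ndufa4l2 in transplant 4 of line 10 was 6.92, with the others from 7.76.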

How the results depend on the processing

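All 6 genes past the threshold had a difference above 0 under each of the 39 alternatives run, and 19 of these kept at least 5 of the 6 calls. The genes were chosen from these same arrays, so a kept direction is no independent support. An Epcam minimum of 9 and a score from floored values left the groups as they were. Both are among the 39 and could not change the result. The number of genes past the threshold moved far more than the direction. Line as a fixed replicate block gave 39 and no replicate block 121, 1 value per line (10 values) gave 0, and Epcam as a covariate gave 25. A filter at the median gave 23, the mean of all probe sets of a gene 18, keeping all arrays 1511, Krt14 alone 54, Krt5 alone 57, groups of 13 arrays at either end 33, groups of 27 arrays 10 and the continuous score 520. Leaving out 1 line at a time gave 0 to 132 genes, the extremes being line 25L (0) and line 17 (132); without line 10 there were 38, and without 13, 19, 25R, 32, 33 or 36 between 1 and 3. Of the alternatives chosen after seeing the data, leaving out the low-Epcam pair gave 22 genes, 217 with the continuous score and 0 with the fixed block, and without it Krt14 alone gave 147 and Krt5 alone 16; the Gapdh ratio as a covariate and leaving out primary tumors gave 1 each, Ndufa4l2. The 23 hypoxia and glycolysis genes higher at an unadjusted p under 0.05 stayed within 1.5 times in 35 of 39 alternatives (17 to 23 when 1 line was left out), and were 5 with 1 value per line, 11 with all arrays kept, 15 with Krt5 alone and 11 without primary tumors. The same fits had 523, 2779, 1499 and 1099 of all tested genes past that level in either direction, in that order. In the middle arrays no alternative gave a call. Where an alternative changes which arrays enter or form the groups, the fits differ in their samples; beyond that, the cause of the shifts was not tested. Intensities near the floor carry no order, and without detection calls signal over background is unknown.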

Other observations

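Splitting the same 54 arrays by 1 keratin at a time gave different leading genes. The splits shared 12 of 18 high arrays and 10 of 18 low arrays, so the values are set side by side and their difference was not tested. These genes were chosen after their values were seen, and each is also given without the low-Epcam pair. By Krt14 alone, Krt79, a keratin of sebaceous and hair follicle ducts, differed by 1.67 (limma adjusted p = 0.00089), and by 1.58 without the pair, against 0.44 (adjusted p = 0.50) by Krt5 alone, 0.17 without the pair. Sostdc1, an antagonist of BMP and Wnt signalling, differed by 1.94 (adjusted p = 0.030) by Krt14, 2.02 without the pair, and by 0.92 by Krt5, 0.80 without it. Penk fell by 2.53 (adjusted p = 0.0081) by Krt14 and by 2.72 without the pair, while by Krt5 its difference was 0.30, 0.37 without it. Ccnd1, the G1 cyclin D1, fell by 0.65 (adjusted p = 0.017) by Krt14 and by 0.51 without the pair, and its difference by Krt5 was -0.0075, 0.18 without it.

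By Krt5 alone, Nectin1, an adherens junction protein, differed by 0.59 (limma adjusted p = 0.0039), 0.50 without the pair, and by Krt14 by 0.0085, -0.14 without it. Lama3 differed by 0.84 (adjusted p = 0.045) by Krt5, 1.09 without the pair, and by 0.24 by Krt14, 0.35 without it. The calls of Jag2, Itgb4 and Igfbp2 by Krt5 were lost without the pair. Jag2, a Notch ligand, differed by 0.80 (adjusted p = 0.015), and by 0.65 (adjusted p = 0.071) without it. Itgb4 differed by 0.64 (adjusted p = 0.045), and by 0.43 (adjusted p = 0.076) without it. Igfbp2, an insulin-like growth factor binding protein, differed by 1.37 (adjusted p = 0.047), and by 0.78 (adjusted p = 0.17) without it.

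Leaving out the low-Epcam pair also brought Cd44, of the basal surface and adhesion list, and Vim, of the EMT and mesenchymal list, past the threshold. Cd44, the hyaluronan receptor, rose by 1.14 ± 0.25 (SE, limma adjusted p = 0.026), against 0.63 ± 0.29 (adjusted p = 0.32) over all kept arrays. With line as a fixed block Cd44 differed by 0.17 over all kept arrays and by 0.78 (adjusted p = 0.34) without the pair. Vim, which encodes vimentin, rose by 0.96 ± 0.22 (adjusted p = 0.036) without the pair, and with line as a fixed block its adjusted p there was 0.31. Of the 17 tested EMT and mesenchymal genes, 16 were above 0 without the pair, with a median of 0.58, and 8 were higher at an unadjusted p under 0.05. Over all genes, 1202 of 8496 were past that level there in either direction. With line as a fixed block over all kept arrays, 4 of the 17 were above 0 and the median was -0.15.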
